A study of Mus musculus with 8 samples.

Results

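Wnt signalling was described through 43 genes: 16 Wnt ligands, 8 receptors and R-spondins, 9 secreted inhibitors and 10 cytoplasmic and nuclear factors. They were taken by name from 21627 protein-coding genes on chromosomes 1 to 19 and X, by a rule that uses no measured value, although the list was drawn up with earlier results of these data known. Each gene was read over its RefSeq span (build GRCm38.p6, the mm10 family) and over 2000 bp on either side of both ends. All 43 had positions in every one of these windows, and together they held 58498 cytosine positions of CpGs.

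Methylation had been measured by whole-genome bisulfite sequencing, in which unmethylated cytosines are read as thymines, in quiescent muscle stem cells, the cells that rebuild muscle fibres after injury. The cells came from limb muscles of male C57BL/6 mice, 4 old animals of 22 months and 4 young animals of 4 months, and the labels name no altered allele and no treatment. They were sorted as VCAM-positive cells without CD45, CD31 or Sca1 and used without culture, with 1 animal per library. The labels state 115 to 200 M (mega) reads per library.

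The table gives 1 level per age at each position, as the authors' group value, so no value per animal, no SD and no depth per position stand behind the levels printed here. A level in bulk DNA cannot tell a different mixture of cells from a different methylation within each cell. Neighbouring positions can carry identical levels, as in the Sost run described further on, so nearby positions were not taken as independent. Whether the authors smoothed the levels was not tested.

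Wnt ligands are secreted lipid-modified proteins that bind Frizzled receptors. In the canonical branch this stops a cytoplasmic complex of Axin, Apc and Gsk3b from marking beta-catenin (Ctnnb1) for destruction, and beta-catenin then joins TCF and LEF factors in the nucleus to switch on targets such as Axin2. R-spondins bind Lgr receptors and strengthen the response, and Dkk, Sfrp, Wif1 and Sost proteins weaken it outside the cell. In regenerating muscle, Wnt ligands act on stem cell expansion, polarity and commitment, and the pathway has been studied as one that shifts with age.

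Most promoters of these genes were CpG-rich and nearly unmethylated at both ages. The RefSeq promoter table (GRCm38.p6) gives 300 bases around a transcription start, 250 before and 50 after it, and matched 31 of the 43 genes with 40 promoters. They held a median of 24.5 CpGs, against 13 over 21044 promoters of protein-coding genes. Their median level was 3.16% in old and 3.15% in young cells, and 35 of 40 (87.5%) lay under 10% at both ages, against 65.3% of all promoters with positions. Of the 40 promoters 20 were higher and 20 lower in old. With 1 promoter per gene 13 of 31 (41.9%) were higher and 18 lower, against 42.3% higher over all genes taken the same way.

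The 6 promoters printed below span this range, from the most CpG-dense to the most methylated. CpGs are in capitals, and each sequence runs 5′ to 3′ along the strand of the gene. Wnt9a, a ligand of joints and blood-forming tissue, has the CpG-richest promoter of the 40, with 58 CpGs at chr11:59306680-59306979 (plus strand) and a level of 2.07% in old cells against 1.94% in young cells.
Wnt9a: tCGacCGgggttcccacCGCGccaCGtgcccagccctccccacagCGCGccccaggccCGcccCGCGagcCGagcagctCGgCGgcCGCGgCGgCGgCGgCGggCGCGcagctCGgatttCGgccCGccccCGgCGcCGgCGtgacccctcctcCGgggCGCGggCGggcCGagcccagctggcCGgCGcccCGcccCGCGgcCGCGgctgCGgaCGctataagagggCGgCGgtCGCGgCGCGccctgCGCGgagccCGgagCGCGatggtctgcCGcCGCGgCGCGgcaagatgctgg
Axin2 encodes a scaffold of the destruction complex and is a standard readout of canonical signalling. Its promoter at chr11:108920099-108920398 (plus strand) holds 31 CpGs and stood at 2.37% in old cells against 2.43% in young cells.
Axin2: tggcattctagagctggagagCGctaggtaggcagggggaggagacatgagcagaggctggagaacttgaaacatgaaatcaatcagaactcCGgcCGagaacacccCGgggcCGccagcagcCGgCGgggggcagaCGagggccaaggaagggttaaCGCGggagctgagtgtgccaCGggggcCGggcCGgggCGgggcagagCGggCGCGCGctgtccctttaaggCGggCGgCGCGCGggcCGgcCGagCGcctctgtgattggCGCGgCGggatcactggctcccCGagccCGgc
Lef1 encodes a DNA-binding partner of beta-catenin and has 4 listed promoters. The first, at chr3:131110047-131110346 (plus strand), holds 18 CpGs and stood at 3.41% in old cells against 3.16% in young cells.
Lef1, first promoter: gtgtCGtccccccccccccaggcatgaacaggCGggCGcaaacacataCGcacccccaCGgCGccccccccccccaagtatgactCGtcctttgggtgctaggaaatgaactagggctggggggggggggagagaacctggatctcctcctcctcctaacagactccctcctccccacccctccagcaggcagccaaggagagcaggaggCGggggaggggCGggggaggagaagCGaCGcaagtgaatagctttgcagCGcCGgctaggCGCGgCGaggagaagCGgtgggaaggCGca
The last Lef1 promoter, at chr3:131156044-131156343 (plus strand), holds only 5 CpGs. It was the most methylated of the 40, at 78.6% in old cells against 70.4% in young cells, with a smallest p of 0.144 among its 10 positions in the authors' deposited table.
Lef1, last promoter: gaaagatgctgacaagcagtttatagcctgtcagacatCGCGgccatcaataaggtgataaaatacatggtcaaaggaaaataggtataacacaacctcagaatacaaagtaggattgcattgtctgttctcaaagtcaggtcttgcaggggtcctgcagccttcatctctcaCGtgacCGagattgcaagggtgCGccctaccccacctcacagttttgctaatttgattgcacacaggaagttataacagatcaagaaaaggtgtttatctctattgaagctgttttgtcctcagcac
Wnt16, a ligand known for its role in cortical bone, has 10 CpGs at chr6:22287977-22288276 (plus strand) and the most methylated ligand promoter, at 18.2% in old cells against 20.2% in young cells.
Wnt16: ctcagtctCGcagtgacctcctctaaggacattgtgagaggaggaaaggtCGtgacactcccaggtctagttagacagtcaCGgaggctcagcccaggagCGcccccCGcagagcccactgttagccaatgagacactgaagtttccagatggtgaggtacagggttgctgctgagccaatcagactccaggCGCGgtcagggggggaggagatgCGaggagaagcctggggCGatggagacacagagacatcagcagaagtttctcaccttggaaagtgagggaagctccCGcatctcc
Sost encodes sclerostin, an inhibitor made by bone cells that blocks Wnt co-receptors. Its promoter at chr11:101966966-101967265 (minus strand) holds 7 CpGs and stood at 22.98% in old cells against 22.8% in young cells, second to the last Lef1 promoter.
Sost: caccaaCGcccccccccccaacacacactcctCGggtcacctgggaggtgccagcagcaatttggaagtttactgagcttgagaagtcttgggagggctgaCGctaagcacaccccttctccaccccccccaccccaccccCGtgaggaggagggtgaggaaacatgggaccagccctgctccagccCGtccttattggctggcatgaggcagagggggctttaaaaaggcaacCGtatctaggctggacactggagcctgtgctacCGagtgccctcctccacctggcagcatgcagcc

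The other promoters over 10% were a pair inside Wnt5b, a ligand of the non-canonical branch, which hold 7 and 4 CpGs. The first stood at 16.8% in old cells against 18.2% in young cells and the second at 12.4% in old and 13.05% in young. The promoter at the outer start of Wnt5b holds 47 CpGs and stood at 2.49% at both ages. The 5 promoters over 10% thus all had at most 10 CpGs, as the plot of level against CpG number shows. A core site of TCF and LEF factors, read as CTTTGAT or CTTTGAA on either strand (the 2 differ in their last base and do not overlap), lay in 3 of 40 promoters (7.5%), against 7.61% of all 21044. These were promoters of Dkk1, Wnt11 and Wnt5b, and a match describes letters only.

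**Figure D1:**
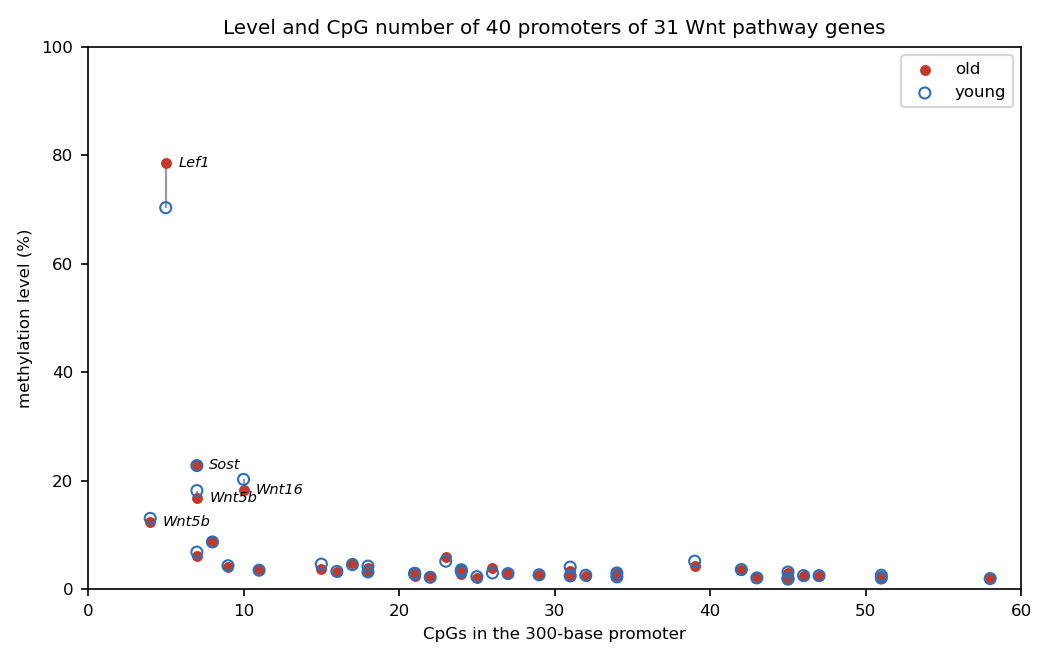
Methylation level (%) in old (filled) and young (open) cells against the number of CpGs in each of 40 promoters of 31 genes, 300 bases each, as the authors' group values with no error. Promoters with over 10 CpGs all lie under 10%, and the last Lef1 promoter stands alone at 78.6% in old cells against 70.4% in young cells.

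Over the genome the level was 64.6% in old and 64.1% in young cells, a difference of 0.473 percentage points over 32984740 positions. Of these positions 77990 (0.236%) had a false discovery rate (FDR) below 0.05 for old against young in the authors' deposited table. Of 8 genes that mark muscle stem cells, 7 had low starts, which stood between 4.55% (Pax7) and 19.7% (Vcam1) in old and between 4.33% and 19.6% in young cells. Cdh15, the exception, stood at 36.9% in old and 35.99% in young cells. For Itga7, Vcam1 and Myod1, as for Pecam1, Cdh5 and Ly6a below, no strand was listed and the less methylated end was taken as the start. That choice favours a low level. Ptprc, Itgam and Cd3e of blood cells stood between 71.8% and 74.7% in old and between 70.8% and 72.3% in young cells. Pecam1 and Cdh5 of vessels stood at 69.8% to 70.7% in old and 67.3% to 70.01% in young cells, whereas Tek stood at 20.6% in old and 20.8% in young cells. The 3 fibro-adipogenic genes spread from 10.3% (Pdgfra) to 53.7% (Ly6a) in old and from 10.3% to 48.02% in young cells, and the 3 muscle fibre genes from 37.98% to 61.1% in old and from 37.2% to 58.2% in young cells. The part of other cells in the values below was not tested.

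By the median of its positions' p-values, no end and no span of a Wnt pathway gene passed the threshold between the ages, while 8 spans passed by their smallest p. The median test of a window multiplied by 2 the median p of its positions in the authors' deposited table, with Benjamini-Hochberg adjustment over all genes and calls at 0.05. Among the end windows and spans of the 43 genes 0 were called, and every adjusted p was 1. The background was as empty, with 0 of 41340 end windows (0.0%) and 0 of 20479 spans (0.0%) called. Before adjustment 8 end windows (0.0194%) and 2 spans (0.00977%) of all genes had a p under 0.05, and 0 of these belonged to the 43. A window with few shifted positions cannot pass by its median. By the smallest p times the number of positions, 0 end windows and 8 spans of the 43 genes passed, against 5.53% of all end windows and 30.9% of all spans. The 8 spans were those of Dkk2, Rspo3, Lgr5, Tcf7l1, Wnt2, Wnt7a, Wif1 and Dkk3. The p-values rest on these 8 animals and on the authors' dispersion.

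At their starts the 43 genes stood at a median of 9.83% in old and 9.87% in young cells, against 23.1% at both ages over all protein-coding genes. The start was the 5′ end for the 31 genes whose strand the promoter table gives and the less methylated end for the other 12, a choice that favours a low level. These 12 were Wnt5a, Wnt7b, Wnt10a, Fzd2, Fzd8, Lgr5, Rspo3, Dkk3, Sfrp1, Sfrp4, Apc and Bcl9l. All genes were handled by the same rule. Of the 43, 35 (81.4%) were under 20% at both ages, against 43.6% of all genes, and their start windows held a median of 41.2 CpGs per kb, against 20.99. In old cells 22 starts were higher and 21 lower, and the median difference was 0.0040 percentage points, against 0.031 over all genes. Single differences ran from -1.62 points (Sfrp4) to 3.45 points (Sost). All 43 lay inside the central 95% of all genes, which runs from -3.55 to 4.59 points. Over the 9051 genes with starts under 20% that range is narrower, from -1.18 to 1.05 points, and of the 35 such Wnt pathway genes Wnt10b (1.32 points) and Sfrp1 (1.16 points) lay above it and 0 below it.

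Gene bodies leaned towards higher levels in old cells, as they did over all genes. Of the 43 spans, 32 (74.4%) were higher in old, against 72.0% of all spans, and the median difference was 0.48 points, against 0.389. The median span level was 44.2% in old and 43.5% in young cells, against 62.4% in old and 61.9% in young cells over all genes. At the end away from the start, 27 of 43 windows were higher in old (62.8%, against 60.6% of all genes), with a median difference of 0.76 points against 0.416.

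**Figure D2:**
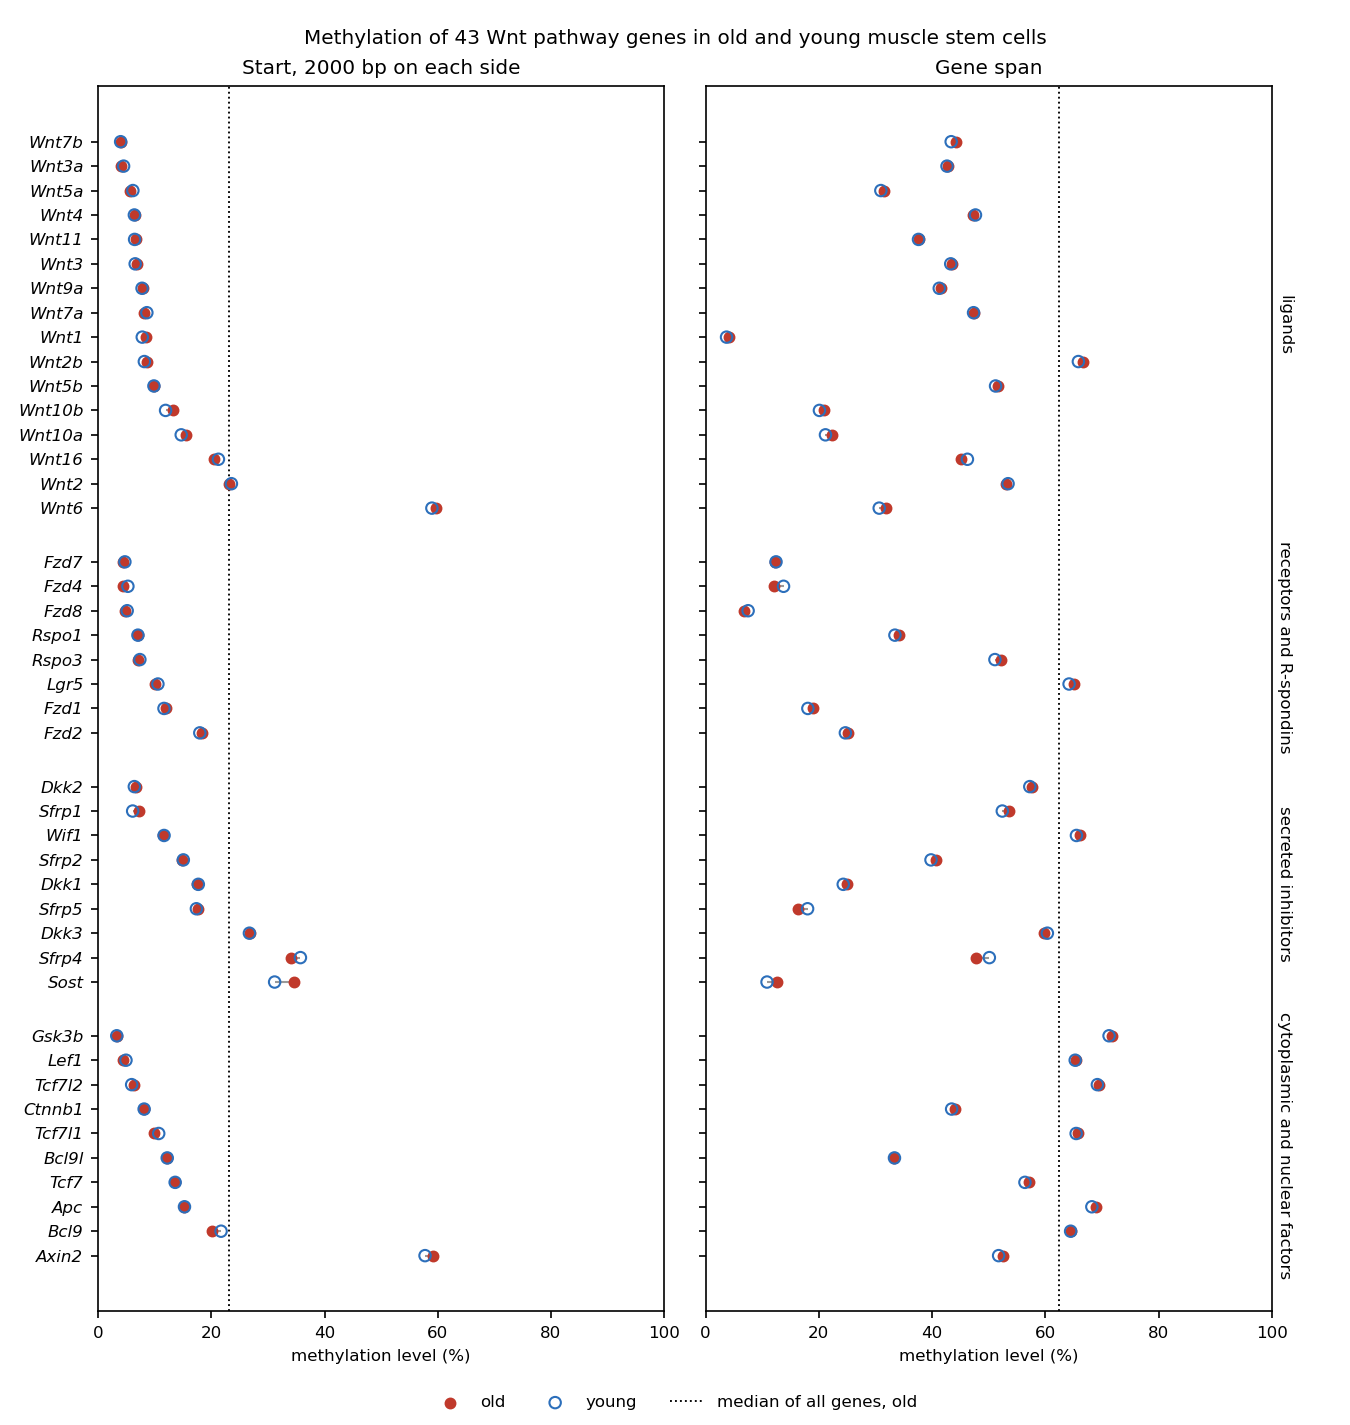
Methylation level (%) at the start (left) and over the span (right) of each of the 43 genes in old (filled) and young (open) cells, as the authors' group values with no error, and the median of all protein-coding genes in old cells (dotted). Starts lie mostly left of the line at 23.1%, and the 2 ages lie within 3.45 points of each other at every start.

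**Figure D3:**
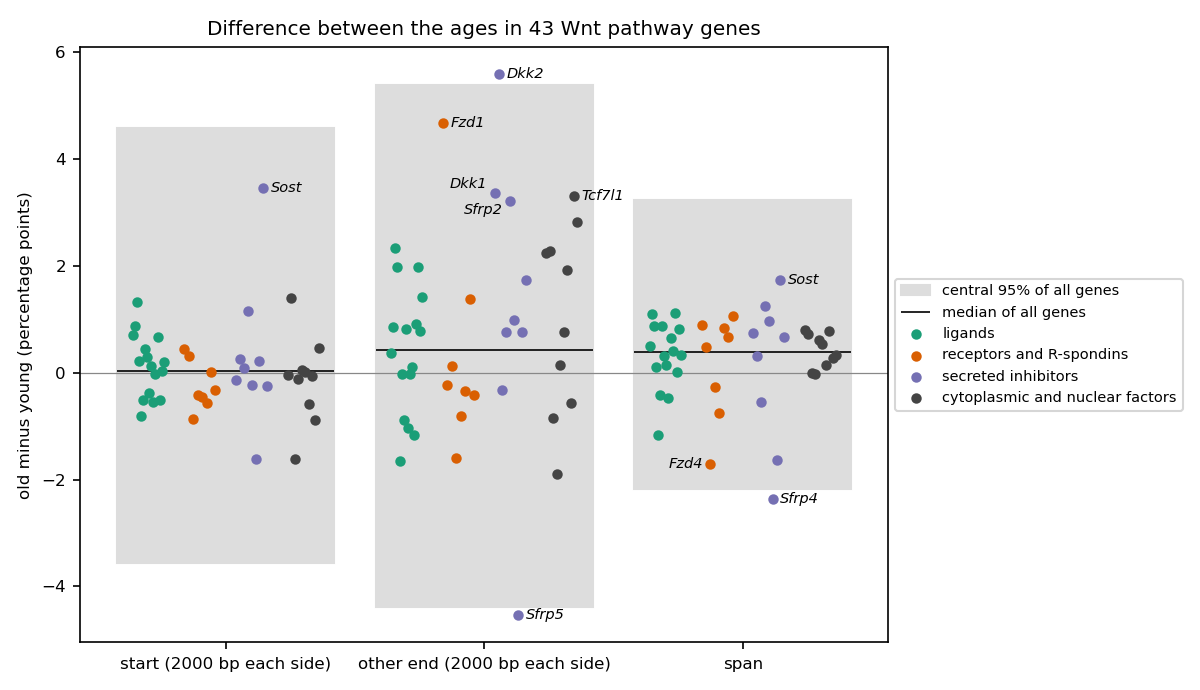
Difference between the ages (old minus young, percentage points) in each of the 43 genes at the start, at the other end and over the span, by class. The grey boxes hold the central 95% of all protein-coding genes and the lines mark their medians. Only Dkk2 and Sfrp5 at the other end and Sfrp4 over the span lie outside a box.

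The 16 ligand genes were low at their starts at both ages, with a median of 8.32% in old and 7.997% in young cells. Of these starts 10 were higher in old and 6 lower, with a median difference of 0.16 points. Wnt7b, a ligand of lung and nervous system, had the lowest ligand start in old cells, at 4.03% in old cells against 3.99% in young cells. Wnt3a, a canonical ligand that drives muscle progenitors to differentiate, stood at 4.13% in old cells against 4.52% in young cells. Wnt4, a ligand of muscle and kidney development, stood at 6.55% in old cells against 6.42% in young cells. Wnt7a, which expands muscle stem cells through Fzd7, stood at 8.12% in old and 8.63% in young.

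The largest ligand differences at the start were in Wnt10b, Wnt10a and Wnt16. Wnt10b (chr15:98770712-98778206, minus strand), a canonical ligand that holds back fat cell formation, stood at 13.3% in old cells against 11.9% in young cells. That difference of 1.32 points is 0.28 points within 1000 bp of the start and -0.20 points within 500 bp. Wnt10a, a ligand of teeth and hair, stood at 15.6% in old cells against 14.7% in young cells, and its difference of 0.87 points is 4.57 points within 500 bp. Wnt16 stood at 20.4% in old cells against 21.3% in young cells, -0.82 points, and was lower in old at each of the 3 widths.

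Wnt6, a ligand of epithelia and somites, was the one ligand with a methylated start, at 59.6% in old cells against 58.97% in young cells, and its difference turned to -2.11 points within 1000 bp. Its span begins far ahead of its listed promoter, and at that promoter the level was 3.33% in old cells against 4.06% in young cells. Wnt2, a ligand of lung and placenta, stood at 23.1% in old cells against 23.6% in young cells. Its listed promoter stood at 2.99% in old cells against 2.86% in young cells. The remaining 7 ligand starts lay between 5.61% (Wnt5a) and 9.85% (Wnt5b) in old, and between 6.16% and 9.87% in young cells.

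Over their spans 13 of 16 ligand genes were higher in old, with a median difference of 0.36 points. Wnt1, whose whole span of 3974 bp is nearly unmethylated, stood at 4.2% in old cells against 3.71% in young cells. The largest differences were in Wnt16, at 45.1% in old cells against 46.3% in young cells, and in Wnt6, at 31.8% in old and 30.7% in young. Wnt10a, which lies next to Wnt6 on chromosome 1, stood at 22.3% in old cells against 21.2% in young cells. Wnt1 and Wnt10b on chromosome 15 and Wnt3a and Wnt9a on chromosome 11 are neighbours too. No position was counted for more than 1 of the 43 genes, but the start window of Wnt3 overlaps the span of Wnt9b, a ligand gene outside the 43.

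The 8 receptor and R-spondin genes were all under 20% at their starts, with a median of 7.07% in old and 7.22% in young cells. For Fzd2, Fzd8, Lgr5 and Rspo3 the start is the less methylated end, so their low level is partly set by that choice. Here 3 starts were higher in old and 5 lower, with a median difference of -0.37 points. Fzd4 (chr7:89404366-89410110, plus strand), a Frizzled of blood vessels and retina, stood at 4.41% in old cells against 5.28% in young cells, the largest difference of the class at -0.87 points. Within 1000 bp of the start its difference was -0.02 points. Of the 325 positions of the Fzd4 start window, 14 belong to a run of neighbours that differed by -17.0 points. Lgr5, an R-spondin receptor known from intestinal stem cells, stood at 10.02% in old cells against 10.6% in young cells. Fzd8, another Frizzled, stood at 4.7% in old and 5.15% in young.

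Fzd7, the receptor of Wnt7a on muscle stem cells, stood at 4.33% in old cells against 4.74% in young cells at its start. Over its span of 4809 bp it stood at 12.2% in old and 12.4% in young. Without the first and last 2000 bp the difference was 0.86 points, over the short middle piece that is left. Rspo1, an R-spondin that acts in muscle stem cell differentiation, stood at 7.06% in old cells against 7.05% in young cells. Fzd1 stood at 12.1% in old and 11.7% in young at its start, and the end away from the start stood at 75.6% in old cells against 70.96% in young cells. Fzd2 had the highest start of the class, at 18.3% in old cells against 17.98% in young cells. Rspo3, an R-spondin of vessels and intestine, stood at 7.07% in old cells against 7.39% in young cells at its start.

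The 5 Frizzled genes are short and were little methylated throughout, with spans between 6.76% (Fzd8) and 25.2% (Fzd2) in old and between 7.52% and 24.7% in young cells. Fzd4 had the largest span difference of the class, at 12.07% in old cells against 13.8% in young cells. Rspo3 had the next, at 52.2% in old and 51.1% in young. In all, 5 of the 8 spans were higher in old, with a median difference of 0.57 points.

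The 9 secreted inhibitor genes had the highest starts of the 4 classes, with a median of 17.6% in old and 17.4% in young cells, and the widest differences in either direction. Here 5 were higher in old and 4 lower, with a median difference of 0.086 points. Sost (chr11:101962458-101967015, minus strand) stood at 34.6% in old cells against 31.2% in young cells, the largest start difference of the 43 genes at 3.45 points. Of the 89 positions of that window 20 belong to a run of neighbours 1803 to 2034 bp inside the gene. Without them the start stood at 32.99% in old cells against 33.6% in young cells, -0.66 points, and within 1000 bp the difference was -2.95 points. The direction at the start of Sost therefore turned with the window.

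Sfrp4 (chr13:19623175-19632825), one of the secreted Frizzled-related proteins that bind Wnts outside the cell, stood at 34.1% in old cells against 35.7% in young cells at its start. It was also lower in old over its span, at 47.8% in old and 50.1% in young, the one span outside the central 95% of all genes (-2.18 to 3.24 points). Sfrp1, of the same family, stood at 7.27% in old cells against 6.12% in young cells at its start, and within 1000 bp its difference was 0.05 points. Its span stood at 53.7% in old cells against 52.4% in young cells. Of the 361 positions of the Sfrp1 start window, 12 belong to a run of neighbours that differed by 19.3 points. That start was not read without the run.

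Sfrp2, a further member of that family, stood at 14.8% in old cells against 15.1% in young cells at its start and at 40.8% in old and 39.8% in young over its span. Dkk3, a divergent Dickkopf protein, stood at 26.8% in old cells against 26.7% in young cells at its start. Its difference was -2.33 points within 1000 bp. Dkk2 and Sfrp5 stood apart at the other end. There Dkk2, which binds Lrp co-receptors, stood at 69.6% in old cells against 63.99% in young cells over 20 positions, and Sfrp5 stood at 48.5% in old and 53.01% in young over 107 positions. The central 95% of all genes at that end runs from -4.38 to 5.38 points.

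Over their spans 6 of the 9 inhibitor genes were higher in old, with a median difference of 0.67 points. Sost, largely unmethylated in its body, stood at 12.6% in old cells against 10.9% in young cells. This was the largest span difference above 0 among the 43 genes. Of the 267 positions of that span, 28 belong to the run of neighbours named above, which differed by 17.5 points. The span was not read without that run, so its value does not describe the rest of the body. Sfrp5 stood at 16.4% in old cells against 18.02% in young cells. Without the first and last 2000 bp its difference was 1.66 points, but its span is 4282 bp, so only a short middle piece is left. The starts of Dkk1, Sfrp5 and Wif1, which binds Wnts directly, stood at 17.6%, 17.6% and 11.4% in old cells against 17.7%, 17.4% and 11.7% in young cells.

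The 10 cytoplasmic and nuclear genes had starts at a median of 10.97% in old and 11.5% in young cells, with 4 higher and 6 lower in old. Ctnnb1, which encodes beta-catenin, stood at 8.19% in old cells against 8.14% in young cells. Gsk3b, the kinase that marks beta-catenin for destruction, was the lowest of the 43, at 3.31% at both ages. Apc, the scaffold of that complex, stood at 15.2% in old cells against 15.3% in young cells.

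Bcl9 and Bcl9l encode the co-activators that tie beta-catenin to the transcription machinery. Bcl9 (chr3:97203658-97298402, minus strand) stood at 20.1% in old cells against 21.7% in young cells, -1.61 points, the largest difference of the class. Its listed promoter lies inside the span and stood at 4.33% in old cells against 5.15% in young cells. Bcl9l stood at 12.1% in old cells against 12.2% in young cells. Axin2 (chr11:108917828-108950783, plus strand) stood at 59.1% in old cells against 57.8% in young cells at the outer end of its span, 1.39 points. As in Wnt6, the listed promoter lies inside the span, and around that promoter, within 2000 bp, the level was 8.31% in old cells against 8.13% in young cells.

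Of the TCF and LEF factors, Tcf7l1, which mostly represses targets without beta-catenin, stood at 9.83% in old cells against 10.7% in young cells. Lef1 stood at 4.34% in old cells against 4.94% in young cells. Tcf7, which encodes Tcf1, stood at 13.57% in old and 13.62% in young, and Tcf7l2 at 6.41% in old and 5.94% in young. The 3 larger differences of the class did not keep their size near the start: within 1000 bp they were -0.14 points in Bcl9, 0.07 points in Axin2 and -0.21 points in Tcf7l1.

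Over their spans 8 of the 10 were higher in old, with a median difference of 0.43 points and a narrow range from -0.03 points (Bcl9l) to 0.81 points (Apc). Apc stood at 69.03% in old cells against 68.2% in young cells and Tcf7 at 57.2% in old and 56.4% in young. These are long genes, with a median span of 98320 bp, and 7 of the 10 had spans over 55% methylated at both ages.

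Where the promoter table allowed it, the start was also placed at the first listed promoter. Over those 31 genes the median level within 2000 bp was then 8.31% in old and 8.14% in young cells, with 16 higher and 15 lower in old. Besides Sost, Dkk3, Wnt6 and Wnt10b, the sign of the start difference turned within 1000 or 500 bp in Wnt4, Wnt7b, Fzd1, Fzd2, Lgr5, Dkk1, Dkk2, Sfrp2, Sfrp5, Apc, Gsk3b, Ctnnb1, Tcf7 and Bcl9l, to values between -0.53 and 0.87 points.

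Short runs of neighbouring positions that differed in the same direction lay in 14 of the 43 genes. A run was at least 6 positions, each with a p below 0.05 in the authors' deposited table, with 1 sign and gaps of at most 100 bp. There were 14 runs, 9 higher and 5 lower in old, of 14 to 232 bp and with differences of 11.4 to 26.4 points in size. Runs occurred in 32.6% of these genes, against a background of 9.52% of all protein-coding genes. The 43 genes hold more positions each (a median of 1016, against 515), and per 10000 positions they had 2.39 runs, against 1.39. A run needs close neighbours, and their start windows held a median of 41.2 CpGs per kb, against 20.99. The part of CpG density in the rate was not tested. The search carries no adjusted p, so runs are descriptions, and 13 of the 14 held 0 positions with an FDR below 0.05 in the authors' deposited table.

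The run in Sost was the longest, 28 positions of 14 CpGs at chr11:101964981-101965212 (all run coordinates are of the mm10 build, counted from 1). It stood at 39.97% in old cells against 22.5% in young cells, and its 28 positions carried only 3 distinct pairs of levels. The 500 bp on either side stood at 31.4% in old cells against 29.1% in young cells, a difference of 2.31 points. Its smallest p was 0.0017 and its smallest FDR 0.338 in the authors' deposited table.

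The other inhibitor runs were in Sfrp1 and Dkk3. In Sfrp1 (chr8:23409553-23409586) 12 positions of 6 CpGs, at -1830 to -1797 bp from the end taken as the start, stood at 67.2% in old cells against 47.8% in young cells. All 12 shared 1 pair of levels, and their flanks stood at 42.2% in old cells against 36.9% in young cells. The run in Dkk3 (chr7:112138383-112138444) held 6 positions and stood at 37.7% in old cells against 50.6% in young cells.

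The one receptor run was in Fzd4. Its 14 positions of 7 CpGs (chr7:89402990-89403136), at -1376 to -1230 bp from the start, stood at 33.2% in old cells against 50.3% in young cells. The flanking 500 bp, which reach into the unmethylated stretch around the start but not to the start itself, stood at 5.58% in old cells against 6.41% in young cells. On the side away from the start, a flank position stood at 72.9% in old cells against 87.75% in young cells. The run in Fzd4 and those of Sost and Sfrp1 were the 3 that reached within 2000 bp of a start.

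Ligand genes held 6 runs, all inside their spans. Wnt3a had 16 positions of 9 CpGs at chr11:59282747-59282838, at 39.2% in old cells against 58.5% in young cells, with flanks at 23.1% in old and 26.2% in young. Wnt5a, the main ligand of the non-canonical branch, had 15 positions (chr14:28510403-28510553) at 27.4% in old cells against 15.97% in young cells, with flanks at 20.7% in old and 15.7% in young. Wnt4 had 6 positions (chr4:137297784-137297816) at 39.2% in old cells against 62.03% in young cells.

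The other 3 ligand runs lay in more methylated sequence and were higher in old. Wnt2 (chr6:18010230-18010292) stood there at 88.8% in old cells against 77.2% in young cells and Wnt2b (chr3:104956323-104956336) at 81.5% in old and 67.4% in young. Wnt5b (chr6:119442092-119442139) stood at 78.9% in old cells against 61.9% in young cells. The runs of Wnt2 and Wnt2b each held 1 pair of levels, over 4 and 3 CpGs.

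Nuclear and cytoplasmic genes held 4 runs. Tcf7l1 (chr6:72660020-72660139) had the widest difference of the 14, at 21.2% in old cells against 47.6% in young cells over 8 positions, 2 of which had an FDR below 0.05 in the authors' deposited table. Tcf7l2 (chr19:55925566-55925636), which encodes Tcf4, had 10 positions at 41.04% in old cells against 17.7% in young cells, all with 1 pair of levels over 5 CpGs. Lef1 (chr3:131207928-131208052) stood at 47.3% in old cells against 30.5% in young cells over 6 positions. Gsk3b (chr16:38231899-38231989) stood at 71.1% in old cells against 57.02% in young cells over 7 positions, and its flanks differed by nearly as much, at 67.1% in old and 54.3% in young.

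How many genes held a run depended on the definition. With at least 10 positions it was 6 of 43 (Fzd4, Sfrp1, Sost, Tcf7l2, Wnt3a and Wnt5a), against 2.31% of all genes. With p under 0.01 it was 4 (Gsk3b, Sost, Tcf7l1 and Wnt3a), against 1.18%.

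**Figure D4:**
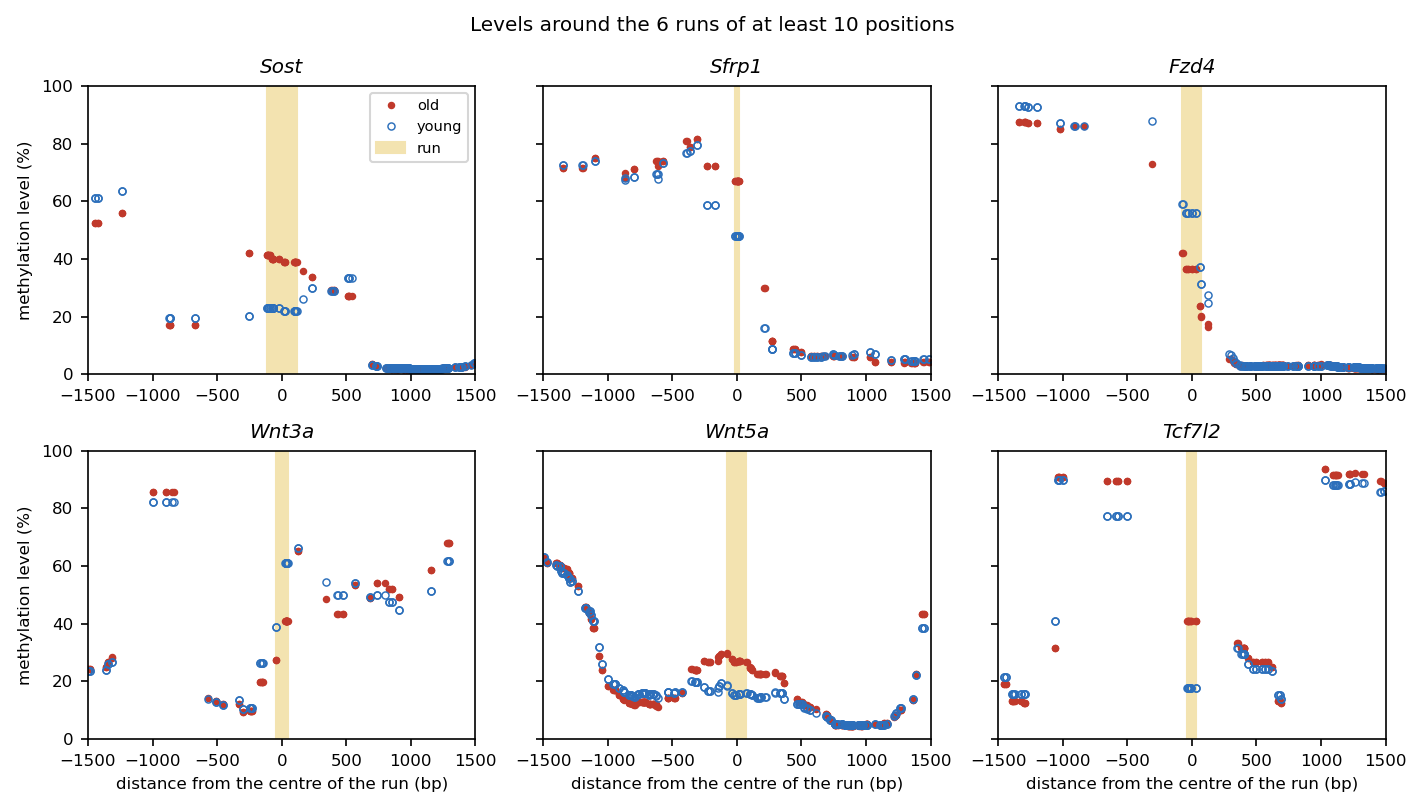
Methylation level (%) of each position in old (filled) and young (open) cells within 1500 bp of the centre of the 6 runs of at least 10 positions (shaded), as the authors' group values with no error. In Sost, Sfrp1, Wnt5a and Tcf7l2 old cells lie above young cells in the run, and in Fzd4 and Wnt3a below them.

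In the authors' deposited table an FDR under 0.05 was reached by 20 single positions, in 9 of the 43 genes. That is 0.0342% of their positions, against a background of 0.236% over all positions and 0.157% over positions near protein-coding genes. Of the genes, 20.9% held such a position, against 38.7% of all genes. Of the 20, 10 were higher and 10 lower in old. Of the 77990 over the genome, 43411 were higher (0.132% of all positions) and 34579 lower (0.105%). All 20 lay inside spans and 0 lay within 2000 bp of a start. Positions with p under 0.05 were also fewer than elsewhere, 1.15% against 1.97% near all protein-coding genes. Called neighbours in Rspo3, Tcf7l1, Wnt7a and Wnt9a shared identical levels, so the 20 calls are not 20 separate sites.

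The 2 widest gaps were both in Rspo3, at 29460177 and 29460276 on chromosome 10, where both positions stood at 72.8% in old cells against 27.7% in young cells. Tcf7l1 had the next, at 72660046 and 72660089 on chromosome 6, with 21.6% in old cells against 51.4% in young cells at both. These 2 lie in its run. Lgr5 held 3 called positions, at 64.6% in old cells against 36.8% in young cells (115529387 on chromosome 10), at 63.7% in old and 37.4% in young (115517681) and at 73.9% in old and 90.2% in young (115513606).

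Dkk2 held 2 called positions, in opposite directions. The one at 132129256 on chromosome 3 stood at 47.02% in old cells against 74.4% in young cells, and the one at 132145414 at 86.1% in old and 62.6% in young. Dkk3 had 1, at 112151746 on chromosome 7, with 63.2% in old cells against 86.1% in young cells. In Wnt2 the wider of 2, at 18011419 on chromosome 6, stood at 44.9% in old cells against 66.1% in young cells. A further position of Rspo3, at 29515643, stood at 72.7% in old cells against 51.8% in young cells. The other calls were in Wnt7a and Wnt9a (2 each), in Wif1 (1) and elsewhere in Tcf7l1 (2) and Wnt2 (1), with differences between -16.4 and 16.9 points.

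No call had a called partner on the other strand, and nearly all carried the most common dispersion of at least 1 age. Of the 20, 19 had the cytosine of the other strand listed, and 0 of these 19 partners had an FDR below 0.05 in the authors' deposited table. Some partners had a p below 0.05 there, down to 0.0042 beside the Lgr5 position at 115529387. Of the 20, 19 carried the dispersion value that is most common in old (0.0434) or in young cells (0.0438), as 23.95% of all positions do. The exception was the position of Dkk2 at 132129256. The part of that value in the calls was not tested.

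The dispersion (phi), which the table gives for each age and position and which the sources used here do not define, was close between the ages. At the starts its median over the 43 genes was 0.0464 in old and 0.0468 in young cells, and 15 of 43 genes (34.9%) were higher in old. The share was 44.1% over all genes and 32.6% over genes whose starts were also under 20%. By class, 4 of 16 ligands, 3 of 8 receptors and R-spondins, 2 of 9 inhibitors and 6 of 10 cytoplasmic and nuclear genes were higher in old. Wnt6 had the highest start dispersion in old, at 0.0599 against 0.0551 in young cells, ahead of Fzd2 with 0.0595 in old and 0.0595 in young cells and Axin2 with 0.0555 in old and 0.0505 in young cells. The starts of Wnt6 and Axin2 were the most methylated of the 43, and that of Fzd2 stood at 18.3% in old and 17.98% in young cells.

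Over the spans the dispersion was higher in old in 23 of 43 genes (53.5%, against 58.04% of all genes). The cytoplasmic and nuclear genes again had the largest share, 8 of 10, and the inhibitors 3 of 9. Sfrp4 and Sfrp5 were the inhibitors with the widest gaps, at 0.0474 and 0.0494 in old cells against 0.0508 and 0.0525 in young cells. The classes did not keep this order in 63 other genes of the pathway. There 7 of 7 inhibitors and 18 of 28 cytoplasmic and nuclear genes were higher in old over the span, and 5 of 7 and 9 of 28 at the start.

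**Figure D5:**
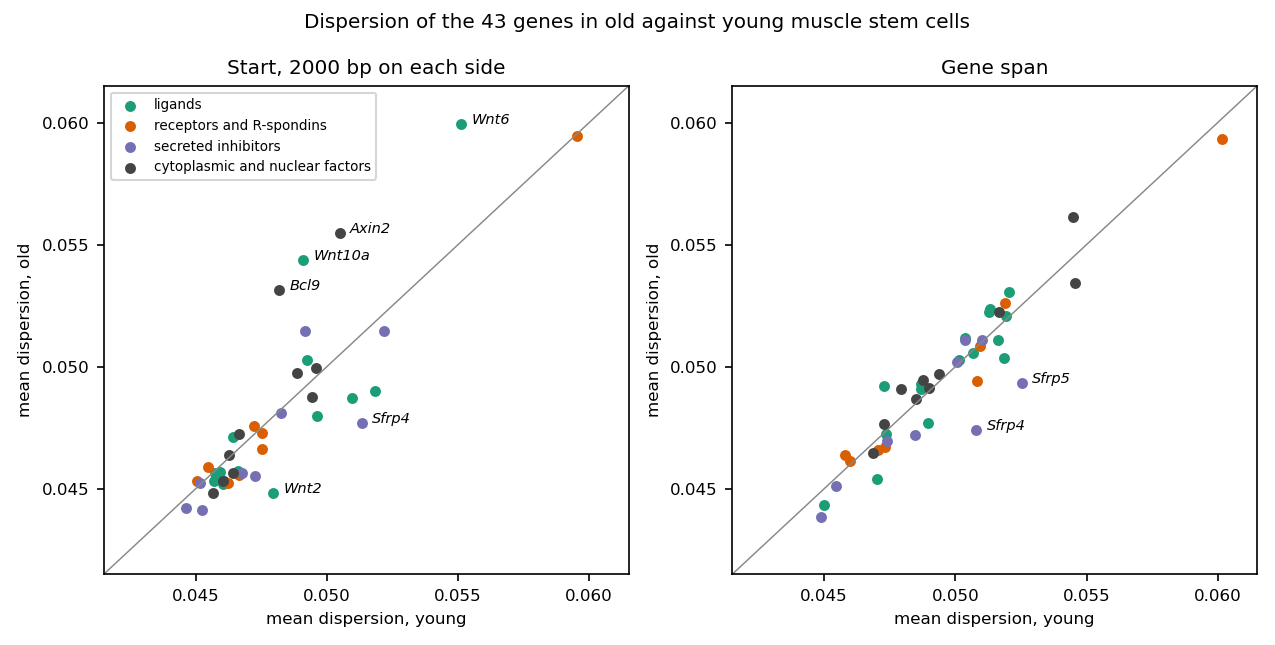
Mean dispersion in old (vertical) against young (horizontal) cells at the start and over the span of each of the 43 genes, by class, with the line of equal values. At the starts 15 of 43 genes lie above the line and over the spans 23 of 43.

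The Wnt pathway genes held long unmethylated stretches at both ages. For each gene the longest stretch was sought over the span and 2000 bp on either side, not only around the start. A stretch had at least 10 consecutive positions with a mean of both ages under 20% and gaps of at most 500 bp. Its median length was 2560 bp over the 43 genes, against 1165 bp over all protein-coding genes, 1755 bp over genes whose starts were under 20% at both ages and 1854 bp over 63 other genes of the pathway. For the 43 genes it was 2650 bp in old and 2636 bp in young cells when each age was read alone. The longest was at Gsk3b, 4722 bp, ahead of Wnt1 with 4484 bp, Wnt3 with 4444 bp and Wnt5b with 4146 bp. The shortest were at Wnt10a, 1040 bp, and Sfrp4, 1060 bp. The Wnt5b stretch (chr6:119478237-119482382) lies deep inside the gene and not at its outer start. Longer spans give more room for a long stretch. The median span was 29169 bp over the 43 genes, against 17330 bp over all genes and 27976 bp over genes with starts under 20%. All 43 genes had a stretch. In the other sets, genes without a stretch were kept as having no length, which can lower the median stretch lengths of those sets. Medians over only the genes with a stretch were not computed.

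At single genes the stretch was longer in old at 12 genes, shorter at 15 and equal at 16. These are 27.9% longer and 34.9% shorter, against 16.8% longer and 14.7% shorter over all genes and 21.9% longer and 19.6% shorter over genes with starts under 20%. The background shares count a gene without a stretch at either age as equal, which can lower both of its shares. Shares over only the genes with a stretch were not computed, so the size of this contrast is open. At Lef1 it measured 3821 bp in old cells against 3232 bp in young cells, and at Wnt3a 4296 bp in old against 3846 bp in young. At Rspo1 it measured 3000 bp in old cells against 3691 bp in young cells, and at Wnt5b 3694 bp in old against 4146 bp in young. These edges carry no error, because the table holds no value per animal.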

How the data were processed

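Libraries of 4 old and 4 young mice formed 2 groups by labelled age. Per the labels' protocols, each library used 150 ng of DNA, 14 PCR cycles and paired reads of 101 bp. The submitters' processing notes name Trim Galore, Bismark, edgeR, mm10 and GRCm38, without versions. The deposited table gives, per the file headers, a level (mu) per age as a fraction of 0 to 1, printed here in percent. It also gives a dispersion (phi) per age, which is a score of the authors. The authors' p-value and FDR for old against young are deposited per position. The sources used here do not name the tool behind the levels and the test.

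Values per animal and read counts are not in the table, and depth per position is unknown. The planned count tests were therefore replaced by the median p per window (at least 10 positions) from the authors' deposited table, multiplied by 2. This test was tried on simulated data in which every position of a changed window was shifted. That simulation cannot show what the test finds in windows where few positions differ. Replicates are separate animals, yet no spread between them could be computed. Adding 1 to each deposited position put 690820 of 690820 positions in RefSeq promoters on a CpG (100%), against 55.2% unshifted, so printed coordinates are the deposited position plus 1. Levels were averaged with equal weight per position, in Python 3.11.15 with numpy 2.4.6 and pandas 2.3.3. Exons and introns were not analysed here. Of 33108039 positions, 32984740 on chromosomes 1 to 19 and X were used.

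The genes and lists were chosen with earlier results of these data known. Named were, per class, the 3 genes with the largest start and the 2 with the largest span differences, the 10 called positions with the largest differences, and 15 genes always: Sost, Axin2, Lef1, Tcf7, Ctnnb1, Wnt3a, Wnt4, Wnt7a, Fzd7, Lgr5, Rspo1, Dkk3, Sfrp2, Bcl9 and Bcl9l. Other genes, the runs and the low stretches were named after their values were seen. Alternatives were window width, minimum positions, the test, the threshold, medians, CpG averages and removal of the most common dispersion.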

Additional observations from a re-analysis of the deposited data

How the results depend on the processing

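Called end windows numbered 0 also with windows of 1000 bp, with at least 5 or 20 positions, by the smallest p, at a threshold of 0.1 and without the most common dispersion. Called spans numbered 0 also with at least 5 or 20 positions and without the most common dispersion, and 8 by the smallest p. Positions past the FDR fell to 1 without the most common dispersion and numbered 14 at an FDR of 0.01. The mean start difference, 0.042 points, was -0.218 points within 1000 bp, -0.146 points within 500 bp and 0.193 points by the median over positions, so its direction depended on the width. Signs held in 32 of 43 starts at 1000 bp and in 27 at 500 bp. The number of starts higher in old, 22, was 14 within 500 bp. The mean span difference, 0.271 points, was 0.58 points without the first and last 2000 bp, over 39 genes. Little sequence is then left in short genes such as Sost, with a span of 4558 bp and a difference of 6.3 points. The mean dispersion difference at the start, -5.05e-05, was -0.000464 by the median and 3.67e-05 without the most common dispersion. Genes with a run, 14, numbered 19 with at least 4 positions (22.3% of all genes), 6 with at least 10 (2.31%), 4 with p under 0.01 (1.18%) and 9 without the most common dispersion (4.19%). The run settings, the RefSeq promoter start and the Sost window without its run were chosen after seeing the data. The causes of these shifts were not tested, beyond the smaller sets of positions. Leaving out 1 replicate at a time could not be run, because the table holds no value per animal. No paired analysis was possible because the columns carry group values without replicate numbers.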

Other observations

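A further 63 genes of the pathway, listed beside the 43, were read in the same way. At their starts 36 were higher in old and 27 lower, with a median difference of 0.040 points and medians of 11.7% in old and 11.8% in young cells. Axin1, a scaffold like Axin2, stood at 76.4% in old cells against 74.2% in young cells at the end of its span taken as the start, and the ligand gene Wnt8a at 39.1% in old and 37.3% in young. Pygo2, a partner of Bcl9, stood at 24.1% in old cells against 25.1% in young cells, and Csnk1d, a casein kinase gene, at 10.7% in old and 11.6% in young. Over their spans 50 were higher in old and 13 lower, by a median of 0.40 points. Of their positions 90 (0.101%), in 31 genes (49.2%), had an FDR below 0.05 in the authors' deposited table, against 0.236% of all positions and 38.7% of all genes. A run lay in 11 of them (17.5%), against 9.52% of all genes. These genes also hold more positions each, a median of 1039 against 515. Per 10000 positions they had 1.46 runs, close to the 1.39 of all genes. Of the 90 positions with an FDR below 0.05, the planar polarity gene Prickle2 held 14 and the receptor gene Ror1 held 12. None of these genes was called by the median test over its ends or span.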
